A study of Rattus norvegicus with 6 samples.

Results

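Diacylglycerol kinases and protein kinase C isoforms were examined in the left ventricle of diabetic OLETF and non-diabetic LETO rats, as 9 genes chosen by name: 5 diacylglycerol kinase genes (Dgkg, Dgka, Dgkb, Dgkz and Dgke) and 4 protein kinase C genes (Prkca, Prkcb, Prkcd and Prkce). They are 9 of 18816 genes tested, and the choice was made with the strain difference of Dgkg already known, so the differences of these 9 genes are given as a description without a test. The gene name column of the files held 8 of the 9 symbols, and Dgke was found under LOC497978, which RefSeq now names Dgke. The 9 genes had 13 probes, of which 12 passed the filter on dim signal.

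The diabetic animals were 3 male OLETF rats with type 2 diabetes, aged 27, 28 and 27 weeks, and the comparison animals were 3 male LETO rats labelled as healthy controls, aged 27, 28 and 28 weeks. The rats are numbered by sample title, since the source name of LETO 2 carries the number of LETO 1. OLETF and LETO are separate strains, so strain and diabetes cannot be told apart, and no drug, transgene or diet is named in the labels. Total RNA of left ventricular tissue was hybridised in 1 colour, 1 array per sample, and the labels speak of independent experiments without saying whether RNA was pooled, so the spread is that between these samples. The arrays of all 6 rats correlated at 0.988 to 0.996 across genes, but LETO 1 stood apart from the other LETO arrays on the second principal component (−33.3, against 19.5 in LETO 2 and 14.4 in LETO 3). In bulk tissue, fewer cells of a type and less RNA per cell cannot be told apart.

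Diacylglycerol is the membrane lipid that phospholipase C releases when receptors such as those for noradrenaline, angiotensin II or endothelin are engaged. It recruits and activates protein kinase C, which phosphorylate contractile, membrane and signalling proteins of the heart muscle cell, and raised diacylglycerol with protein kinase C activation has been described in hearts of diabetic animals. Diacylglycerol kinases end that signal by converting diacylglycerol to phosphatidic acid, itself a signalling lipid and a precursor for phosphoinositide resynthesis.

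Among the 9 genes, 1 stood out. Dgkg, the gamma isoform, was 3.74-fold higher in OLETF, whereas the other 8 genes had log2 differences between −0.32 and 0.23. The median of the 9 differences was −0.03, against −0.01 over all genes tested. Of all genes tested, 2.55% had an adjusted p below 0.05 in limma, 1.5% higher and 1.05% lower in OLETF, and 1 of the 9 genes, Dgkg, was among them. With slide as a block 0.558% of all genes passed, Dgkg among them, and 0.462% of all genes had an absolute difference at least that of Dgkg. The OLETF and LETO arrays did not overlap in 1 of the 9 genes, Dgkg, and in 17.4% of all genes tested. Because Dgkg led to the choice of these genes, nothing is read from these counts.

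Probe sequences of Dgkg and of 3 protein kinase C genes are shown 5′ to 3′ as in the array files. Dgkg had a single probe, so its result rests on that sequence, in which capitals mark the longest stretch shared with a probe of another gene. The protein kinase C probes are shown because they cover a place that these kinases share. The printed Prkce probe gave the Prkce level used here, the printed Prkca probe was its second probe, and the printed Prkcb probe was too dim to be tested. In these 3, capitals mark the codons of the hydrophobic motif, a phosphorylation site near the carboxyl end of these kinases.
Dgkg: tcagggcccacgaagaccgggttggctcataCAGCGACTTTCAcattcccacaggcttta
Prkca: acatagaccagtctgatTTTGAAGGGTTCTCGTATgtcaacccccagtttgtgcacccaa
Prkcb transcript variant 1: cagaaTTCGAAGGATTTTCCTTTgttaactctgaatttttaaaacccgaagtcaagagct
Prkce: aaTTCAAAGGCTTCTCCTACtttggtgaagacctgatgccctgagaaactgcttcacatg

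The longest stretch that the Dgkg probe shared with a probe of another gene was 12 of its 60 bases, and over the 13 probes this length lay between 11 and 15 bases. The codon pattern of the hydrophobic motif, searched on the printed strand only, was present in 3 of the 13 probes and in 0.148% of all 30367 probes. Any pair of the 3 motif stretches shared 13 of 18 bases, so these probes cover the same conserved place with sequences that differ. Of the 3, the Prkcb probe was too dim to be tested. The rn4 positions in the files put the Dgkg probe at chr11:80814226-80814285 on the plus strand, with a GC content of 55.0%. The probes of Dgka at chr7:2019228-2019503 and Dgkz at chr3:76313949-76314080, both on the minus strand, spanned 276 and 132 genomic bases for a sequence of 60, so each lies across a splice junction. The files give no exon or UTR annotation for rn4.

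All levels below are log2 of the processed spot signal over the array's 75th percentile, a scale on which values of different probes are not comparable with each other. Dgkg encodes a kinase with calcium-binding EF hands, best known from brain and retina. Its level was −3.10, −3.00 and −3.07 in OLETF 1 to 3, against −4.82, −4.99 and −5.06 in LETO 1 to 3. The lowest OLETF array lay far above the highest LETO array, and the probe was well above background on all 6 arrays. The means were −3.06 ± 0.05 in OLETF and −4.96 ± 0.12 in LETO (SD, n = 3 each), a log2 difference of 1.90 ± 0.10 (SE). The processed intensity behind these levels was low, with 143, 111 and 147 units in OLETF and 37.3, 30.0 and 31.6 units in LETO. All LETO arrays and OLETF 1 shared a slide, while OLETF 2 and OLETF 3 lay on another. The Dgkg difference was 1.85 within the shared slide, about as large as over all arrays, and 1.97 without LETO 1. For every gene, the difference within the shared slide, or with slide as a block, sets OLETF 1 alone against the 3 LETO arrays. It therefore has no replicate in OLETF. Background correction with normexp, an added offset of 50 units, more than the LETO signal itself, and quantile normalization together gave a smaller difference of 0.95.

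**Figure D1:**
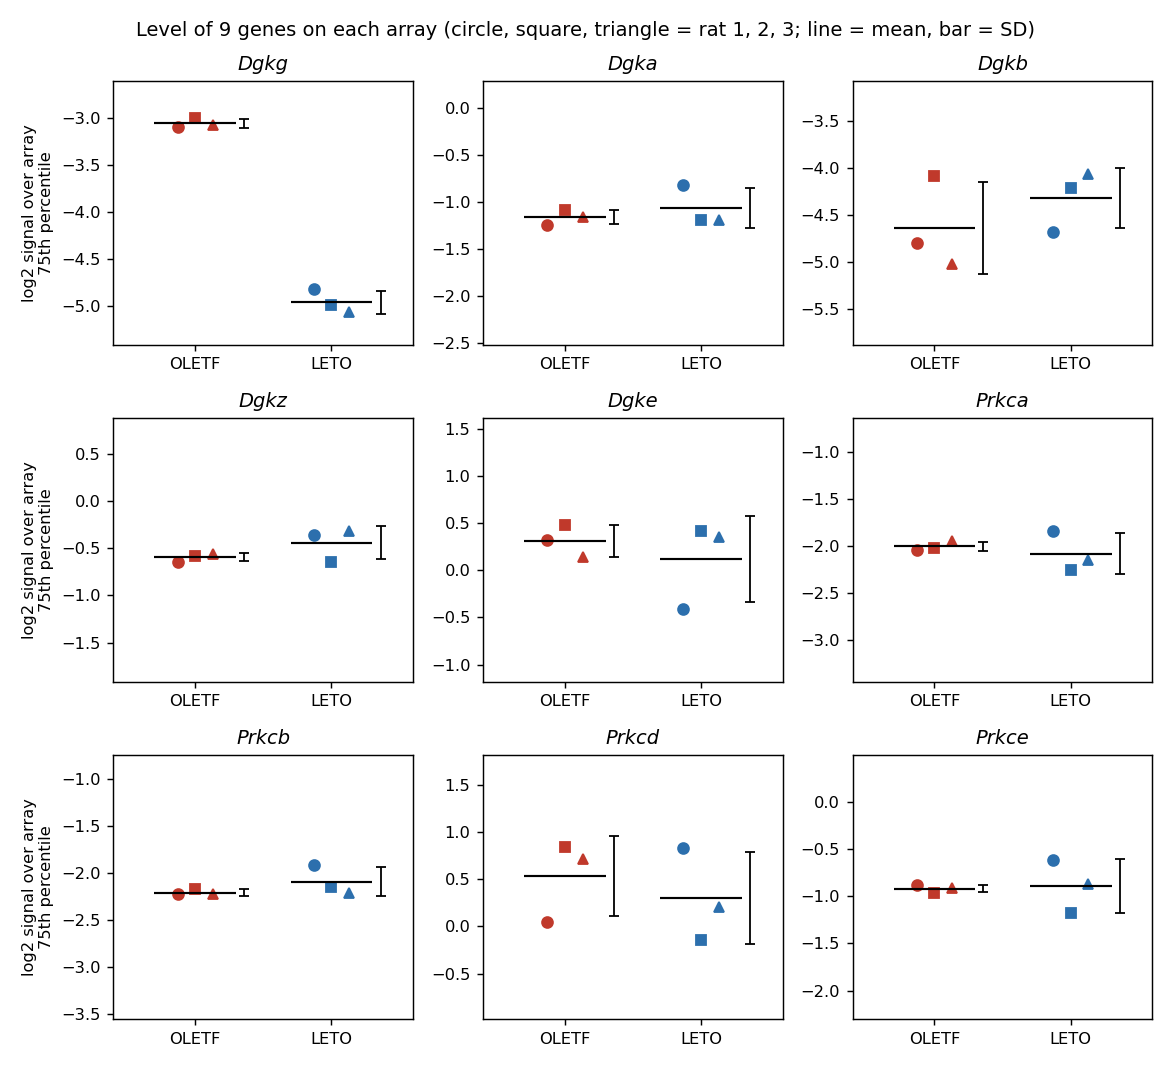
Level of the 9 genes on each array, as log2 signal over the array's 75th percentile, with OLETF in red left of LETO in blue, 1 point per rat, a line at the mean and a bar for the SD. Each panel spans the same range around its own centre. The Dgkg points form separate groups near −3 and −5, and in the other 8 panels the strains overlap.

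The remaining kinases with EF hands behaved differently from Dgkg. Dgka, known for restraining diacylglycerol signals in T lymphocytes, had −1.24, −1.09 and −1.16 in OLETF and −0.82, −1.19 and −1.19 in LETO. Its strains overlapped, LETO 1 stood highest, and the log2 difference was −0.10 ± 0.12 (SE), or 0.02 without LETO 1. Dgkb, a mainly neuronal isoform, had −4.80, −4.09 and −5.02 in OLETF and −4.68, −4.21 and −4.07 in LETO, with processed intensities between 37.7 and 63.0 units. Its arrays scattered within both strains, with SDs of 0.49 in OLETF and 0.32 in LETO (n = 3 each), and the log2 difference was −0.32 ± 0.27 (SE), or −0.50 without LETO 1.

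Dgkz, an isoform with ankyrin repeats that also acts in the nucleus, had −0.64, −0.58 and −0.56 in OLETF and −0.36, −0.64 and −0.32 in LETO. The 3 OLETF values were tight and lay at the lower end of the LETO range, with a log2 difference of −0.15 ± 0.11 (SE). Dgke, which prefers diacylglycerol that carries arachidonic acid and so serves phosphoinositide recycling, had 0.32, 0.48 and 0.14 in OLETF and −0.41, 0.42 and 0.35 in LETO with its brighter probe. LETO 1 lay well below the other 5 arrays there, and the log2 difference was 0.19 ± 0.22 (SE). The second Dgke probe gave 0.00 ± 0.14 (SE). Without LETO 1 the brighter probe gave −0.07, so the sign of its difference depended on LETO 1.

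Among the protein kinase C genes, the conventional isoforms, which need calcium as well as diacylglycerol, had nearly the same level in both strains. Prkca, the main conventional isoform of rodent heart muscle and a regulator of its contractility, had −2.04, −2.02 and −1.95 in OLETF and −1.84, −2.25 and −2.15 in LETO with its brighter probe. The OLETF values lay within the LETO range, with a log2 difference of 0.08 ± 0.12 (SE), or 0.20 without LETO 1. The other Prkca probe, over the hydrophobic motif, gave 0.01 ± 0.13 (SE).

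Prkcb, the isoform most often studied in diabetic complications, was read by a probe for each of its transcript variants. Variant 2 had −2.23, −2.17 and −2.23 in OLETF and −1.92, −2.15 and −2.21 in LETO, with a log2 difference of −0.12 ± 0.10 (SE), or −0.03 without LETO 1. That probe was well above background on all 6 arrays. The variant 1 probe was not well above background on any of the 6 arrays, with processed intensities of 4.23, 4.81 and 8.48 units in OLETF and 3.98, 4.26 and 5.48 units in LETO, so no strain difference is given for it.

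The calcium-independent isoforms respond to diacylglycerol alone, and they differed in how much they varied between arrays. Prkcd, linked in the heart to cell death and injury after ischemia, had 0.05, 0.84 and 0.72 in OLETF and 0.83, −0.14 and 0.21 in LETO. High and low arrays occurred in both strains, and the means were 0.53 ± 0.43 in OLETF and 0.30 ± 0.49 in LETO (SD, n = 3 each). The Prkcd probe was printed 10 times on each array, and the SD among its spots lay between 0.04 and 0.08 within an array. Spots of an array share RNA, labelling and hybridisation, so they give the noise of the spot reading only. Of all genes tested, 3.94% varied more within strains than Prkcd did. The log2 difference of Prkcd was 0.23 ± 0.29 (SE) over all arrays and 0.50 without LETO 1. Within the shared slide, with OLETF 1 alone, it was −0.25, so its sign was not settled.

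**Figure D2:**
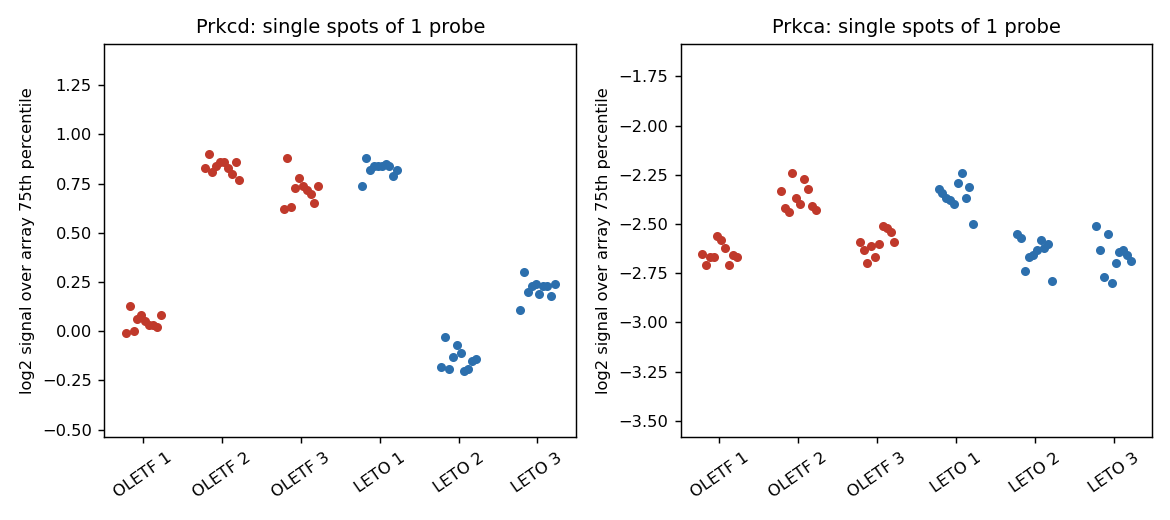
Single spots of the Prkcd probe and of the Prkca probe printed 10 times per array, as log2 signal over the array's 75th percentile, with OLETF arrays in red left of LETO arrays in blue. Prkcd spots cluster tightly within each array, while arrays lie from −0.14 in LETO 2 to 0.84 in OLETF 2, and the Prkca arrays lie close together.

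Prkce, known for protecting heart muscle during ischemic preconditioning, had −0.88, −0.96 and −0.91 in OLETF and −0.61, −1.18 and −0.87 in LETO with its brighter probe. OLETF fell inside the LETO range, and the log2 difference was −0.03 ± 0.15 (SE), or 0.11 without LETO 1. The second Prkce probe, at another genomic position, gave −0.13 ± 0.14 (SE). The OLETF SD was 0.04 for the brighter probe, against 0.29 in LETO. LETO 1 was the highest or lowest of the 6 arrays in 5 of the 9 genes, and the same held for 52.7% of all genes tested.

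**Figure D3:**
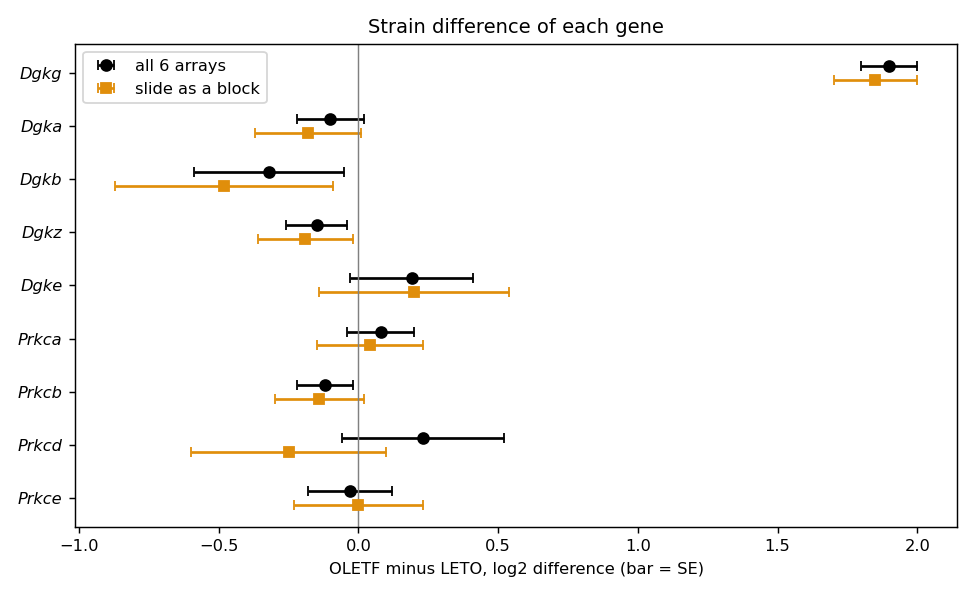
Log2 difference, OLETF minus LETO, of each of the 9 genes with its SE, over all 6 arrays (black circles) and with slide as a block (orange squares). Dgkg stands at 1.90 and 1.85, every other gene lies between −0.48 and 0.23, and Prkcd changes sign between the fits.

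The genes whose 6-array profile was most like that of Dgkg were sought by the root mean square difference of mean-centred log2 levels. Folr2, a folate receptor of macrophages, was closest at 0.06, with a log2 difference of 1.94, a size that the search for profiles like that of Dgkg fixes. Tsks, known from testis, and Fbxl2, an F-box protein, followed at 0.16 each, although Fbxl2 was well above background on the 3 OLETF arrays only. The other 2 of the 5 nearest were a transcript and a probe without a gene name, at 0.07 and 0.13. None of the 5 was named in the diacylglycerol pathway lists, which says nothing about the pathway. The search returns only genes with a strain difference near that of Dgkg, and 2 of the 5 had no gene name.

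Genes next to Dgkg were examined after its values had been seen. Within 1 Mb of the Dgkg probe on rn4 chromosome 11, 21 other genes were tested, and 0 passed in limma at an adjusted p below 0.05, with 4 at an unadjusted p below 0.05, which 12.4% of all genes tested had. Their log2 differences lay between −0.35 and 0.37. The nearest named gene, Etv5, a transcription factor of the ETS family, at 90 kb, had 0.00 ± 0.17 (SE).

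**Figure D4:**
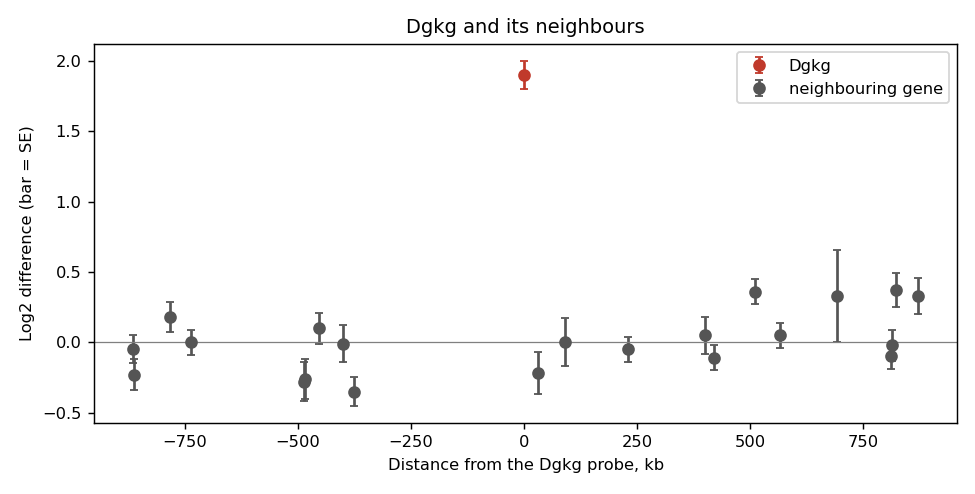
Log2 difference, OLETF minus LETO, with SE for Dgkg (red) and the 21 genes tested within 1 Mb (grey), by distance from the Dgkg probe in kb. The neighbours lie between −0.35 and 0.37, and Dgkg stands alone at 1.90.

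The rest of the pathway was followed from receptor to target through 8 lists holding 97 tested genes, of which 1 rose and 0 fell in limma at an adjusted p below 0.05. That is 1.03% of the list genes, against 2.55% of all genes tested, and 9 of the 97 had an unadjusted p below 0.05, against 12.4% of all genes tested. The median log2 difference of the 97 was −0.01, equal to that of all genes. Of the remaining diacylglycerol kinases, 0 of 4 tested passed, with 0 at an unadjusted p below 0.05. Dgki had −0.44 ± 0.26 (SE, adjusted p = 0.627) and Dgkh had 0.17 ± 0.12 (SE, adjusted p = 0.685) in limma. Of 5 tested genes for other protein kinase C isoforms and the related protein kinase D, 0 passed and 0 had an unadjusted p below 0.05. Prkch, the eta isoform, which also needs no calcium, had 0.66, 0.81 and 0.83 in OLETF and 0.45, 0.65 and 0.54 in LETO, groups that only just did not overlap (limma adjusted p = 0.435).

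Upstream, 0 of 16 tested genes for Gq proteins, their receptors and their regulators passed, with 2 at an unadjusted p below 0.05. Those were Ednra, the endothelin A receptor, at −0.40 ± 0.14 (SE, limma adjusted p = 0.275), and F2r, the thrombin receptor, at 0.33 ± 0.12 (SE, limma adjusted p = 0.303). Of 12 tested phospholipase C genes, Plcd4 passed. Plcd4, a delta isoform that cleaves phosphoinositide to diacylglycerol and inositol trisphosphate, had −2.39, −2.34 and −2.39 in OLETF, against −2.95, −2.99 and −2.93 in LETO. The strains were well apart, and Plcd4 rose by 0.58 ± 0.08 on the log2 scale (SE, limma adjusted p = 0.0112). A second Plcd4 probe gave 0.59. Within the shared slide the difference was 0.57, close to that over all arrays, but it rests on 1 OLETF array and the call was lost. With replicate number as a block the limma adjusted p was 0.0743. Leaving out OLETF 1, OLETF 2, OLETF 3 or LETO 2 also ended the call, with adjusted p = 0.0511, 0.0609, 0.0754 and 0.0549, and differences of 0.57 to 0.59. Plcd3, another delta isoform, was named outside the rule after its values were seen, and had −0.26 ± 0.10 (SE, limma adjusted p = 0.347).

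In the remaining 4 lists, which hold genes that make diacylglycerol as well as genes that use or bind it, 0 genes passed in limma. For phosphatidic acid and phosphoinositide recycling this was 0 of 19, with 1 at an unadjusted p below 0.05, and Pip5k1b, a phosphoinositide kinase, had 0.31 (adjusted p = 0.278) and Ppap2a, a phosphatidic acid phosphatase, had 0.17 (adjusted p = 0.580). For diacylglycerol in triglyceride turnover it was 0 of 12, with 3 at an unadjusted p below 0.05. There Mgll, which splits monoacylglycerol, had 0.52 ± 0.13 (SE, adjusted p = 0.105) and Dgat1, which turns diacylglycerol into triglyceride, had −0.29 ± 0.10 (SE, adjusted p = 0.247). Mogat2, which makes diacylglycerol from monoacylglycerol, was singled out after its values were seen, with the lowest difference of the lists at −0.96 ± 0.35 (SE, adjusted p = 0.309), and its strains overlapped. Mogat2 was dim, with −5.78, −5.52 and −4.62 in OLETF and −3.82, −4.82 and −4.39 in LETO, and well above background on 5 of the 6 arrays. For other proteins that bind diacylglycerol it was 0 of 9, with 1 at an unadjusted p below 0.05. Cdc42bpa, a kinase of the actin cytoskeleton, had 0.42 ± 0.10 (SE, adjusted p = 0.0842) and Chn1, a Rac regulator, had 0.16 (adjusted p = 0.536). For protein kinase C scaffolds and substrates it was 0 of 20, with 0 at an unadjusted p below 0.05, and Nrgn, a neuronal substrate, had −0.43 (adjusted p = 0.435) and Add1, a membrane skeleton protein, had 0.18 (adjusted p = 0.484).

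**Figure D5:**
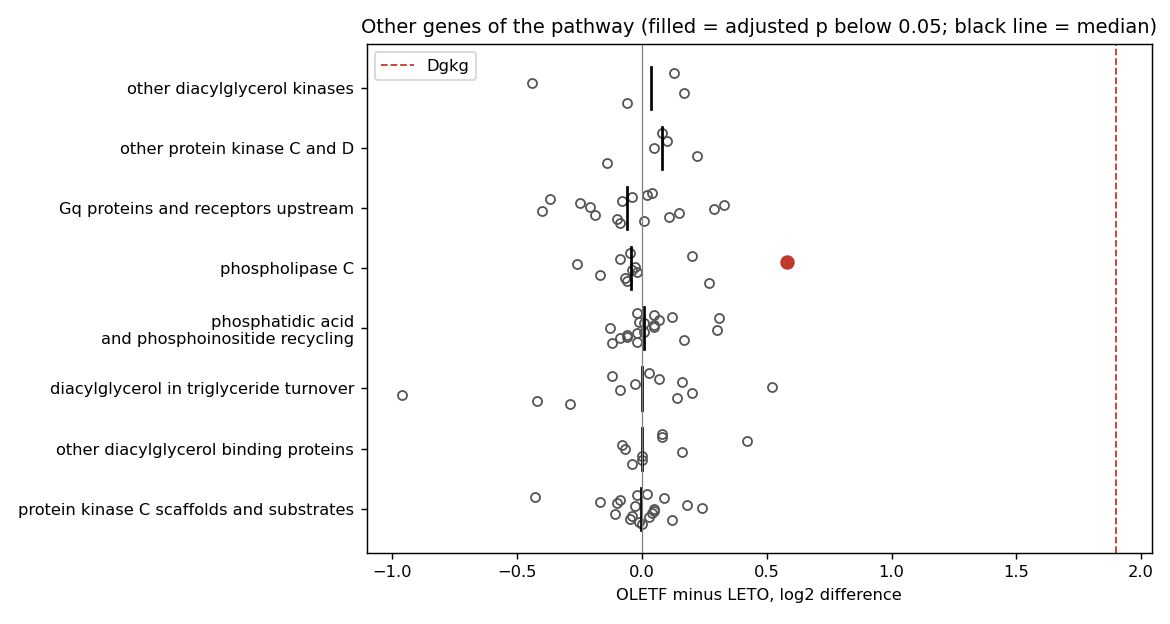
Log2 difference, OLETF minus LETO, of the genes in the 8 pathway lists, 1 point per gene, with a black line at each list's median, and a dashed line at Dgkg. Plcd4 is the only filled point, at 0.58, and the list medians lie between −0.06 and 0.08.

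The tissue label was checked by its markers. All 9 cardiomyocyte markers were well above background on all 6 arrays, with summed linear levels of 2150 to 2600 in OLETF and 2280 to 2610 in LETO. Their log2 differences were all negative, with a median of −0.11, and 0 of the 9 passed in limma, with 0 at an unadjusted p below 0.05. Of 10 marker lists, 2 had summed levels that did not overlap between the strains. Such a sum of linear levels follows the brightest probes of its list. Of all single genes tested, 17.4% did not overlap and 2.55% passed in limma. Lymphocyte markers, 3 of 8 tested, summed to 0.785 to 0.916 in OLETF and 1.08 to 1.22 in LETO, and mast cell and neutrophil markers, 2 of 7 tested, summed to 0.0967 to 0.106 in OLETF and 0.0741 to 0.0964 in LETO. In the mast cell and neutrophil list Cpa3 rose by 1.03 on the log2 scale (limma adjusted p = 0.0147) while Mpo had −0.21 (limma adjusted p = 0.713), and the sums were barely apart. Cpa3 was dim, at −4.38, −4.56 and −4.31 in OLETF and −5.70, −5.18 and −5.45 in LETO. It was well above background on 5 of the 6 arrays, and normexp with quantile normalization gave 0.35. Cd3g, of the lymphocyte list, fell by 0.96 (limma adjusted p = 0.0178). The other tested markers of that list, Cd3d and Cd2, had −0.16 and −0.25 (limma adjusted p = 0.664 and 0.792), with overlapping strains. With slide as a block, which sets 1 OLETF array against LETO, the differences were 1.07 for Cpa3 and −0.70 for Cd3g, and both calls were lost. The Cpa3 call was also lost without OLETF 1, OLETF 2, OLETF 3 or LETO 3, and the Cd3g call without OLETF 2, OLETF 3, LETO 1 or LETO 2. With each array left out in turn the adjusted p was 0.0145 to 0.0819 for Cpa3 and 0.0207 to 0.0894 for Cd3g. In the red blood cell list Slc4a1, the anion exchanger of red cells, rose by 3.19 (limma adjusted p = 0.00589), a call kept when each array was left out in turn. With slide as a block its difference was 2.88 and the call was lost. The hemoglobin genes of that list had −0.94 for Hba-a1, carried on the array as Hba-a2, and −2.22 for Hbb (limma adjusted p = 0.304 and 0.411). The other tested probe of Hba-a2 gave −2.15. Of 6 tested smooth muscle and pericyte markers 0 passed, with 2 at an unadjusted p below 0.05. Acta2, Myh11 and Tagln had −0.44, −0.79 and −0.78 (limma adjusted p = 0.239, 0.436 and 0.362). The other tested markers of that list, Pdgfrb, Rgs5 and Mylk, had −0.01, 0.04 and 0.01. Without LETO 1, Myh11 and Tagln passed, at −1.20 and −1.15 (limma adjusted p = 0.0456 and 0.0318). The other 5 markers of the lymphocyte list and of the mast cell and neutrophil list, among them Ms4a1 and Mcpt1, were not well above background on all arrays of either strain. The part of any of these markers in the level of Dgkg was not tested.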

How the data were processed

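The scanner software was Feature Extraction, version 10.7.3.1 per the file headers and 9.1 in the submitters' processing notes. The deposited processed signal is linear intensity with background subtracted and detrending applied, not scaled between arrays; the deposited value table holds the same intensity over a constant per array. Of 30367 probes, 17 with outlier flags on all spots of an array were dropped. Spots were averaged per probe as log2, and each array's 75th percentile over probes, 887.3 to 1228.2 units, was subtracted. Between 75.55% and 79.80% of spots were well above background, none was saturated, and the number of arrays limits the precision. Probes well above background on all 3 arrays of a strain were tested (21484), and the brightest stood for its gene. Limma 3.58.1 in R 4.3.3 (lmFit, eBayes) compared 3 OLETF with 3 LETO arrays, Benjamini-Hochberg adjusted over 18816 genes; the code was tested on simulated data. Python 3.11.15 made tables and figures. The design's rule names all 9 members, up to 4 called genes per list or up to 2 otherwise, and the 5 profiles nearest Dgkg. One gene that the rule names is not reported here. Members and lists were chosen with earlier results of these data known. Correlations of deviations between arrays of equal number were −0.0882, −0.137 and −0.00795, so numbers do not pair rats. The alternatives were other scaling, background correction, filters, probe summaries, variance models, weights, covariates, blocks and left-out arrays.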

Additional observations from a re-analysis of the deposited data

How the results depend on the processing

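The Dgkg difference was between 1.85 and 1.97 under every alternative run except normexp with quantile normalization, where it was 0.95. Leaving out 1 array gave 1.85 to 1.97. The other 8 members kept absolute values of at most 0.67, and 7 of their 136 alternative values had the other sign, including Prkcd with slide as a block at −0.25. Genes called higher and lower, 283 and 197 in all, numbered 149 and 91 without a filter, 875 and 825 with array quality weights, 52 and 53 with slide as a block, and 122 and 79 at an adjusted p below 0.01. The replicate block gave 166 higher, and without 1 array the counts were 126 to 375 higher and 87 to 239 lower. Without OLETF 1, OLETF 2, OLETF 3 or LETO 2, 179, 126, 129 or 168 genes were called higher, and without OLETF 2, OLETF 3 or LETO 2, 101, 87 or 116 were called lower. Pathway genes called higher, 1 in all, numbered 2 with normexp, 3 with trend and robust, 6 with array weights, and 0 with the replicate block, with slide as a block or at 0.01, and 0 to 1 without 1 array. Those called lower, 0 in all, numbered 1 with array weights and 0 without any 1 array. The cause of these moves was not tested. The normexp run added an offset above the LETO signal of Dgkg, and the part of that offset was not tested either. Low signal limits Dgkg, Dgkb, Prkcb variant 1, Cpa3 and Mogat2. With 3 arrays per strain, single outlying arrays were not tested for.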
